A study of Mus musculus with 2 samples.

Results

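The genes of translation initiation and of tRNA charging were examined for regions bound in a CUT&RUN experiment on the homeodomain factor Otp. The set was defined by symbol: all protein-coding genes of the mouse RefSeq annotation (GRCm38.p6, the assembly that mm10 denotes) whose symbol starts with Eif, or names an aminoacyl-tRNA synthetase, such as Aars, Farsb, Lars2 or Eprs. It holds 93 of 21887 nuclear protein-coding genes, made up of 56 initiation factors and their regulators, 20 cytosolic synthetases and 17 mitochondrial synthetases. The rule reads symbols and no measured value, but it was written with earlier results of these data known. CUT&RUN tethers a nuclease to an antibody in permeabilised nuclei and sequences the DNA that it releases. Both libraries were made from hypothalamic tissue of adult wild-type mice, namely nuclei of the paraventricular nucleus (PVN), with an antibody against Otp (Orthopedia) in the first and with IgG, the control antibody without a target, in the other. With 1 library per group, differences between them could not be tested against replicate spread. The labels give neurons as the cell type, while the protocol describes no sort of nuclei, and the number of animals is not given in the sources used here. Peak lists hold no expression values, so the labelled tissue could not be checked against its markers.

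Initiation brings the small ribosomal subunit, with the initiator tRNA carried by eIF2, to the start codon of an mRNA. The eIF4 group recognises the cap and unwinds the leader, eIF3 is the scaffold on the small subunit, and eIF2B recharges eIF2 with GTP. Aminoacyl-tRNA synthetases join each amino acid to its tRNA, with separate nuclear genes for most cytosolic and mitochondrial enzymes. Kinases that phosphorylate eIF2 lower initiation and raise the transcription factor ATF4, whose known targets include several cytosolic synthetases. In PVN neurons, which secrete peptide hormones, these genes serve general protein synthesis.

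The deposited Otp list held 11354 regions on nuclear chromosomes and the IgG list held 275. A region was counted at a gene when its summit lay within 1 kb of either end of the gene. Its fold enrichment, as the authors deposited it, sets the summit's signal against a local background that the peak caller estimates. Tags are the reads or fragments stacked at the summit, worked out from the deposited fold enrichment and p-value, and their 95% Poisson intervals cover counting error only.

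The sequences under the regions with the highest fold enrichment near a tabled start are shown first, for the gene with the highest value in the kinase, eIF2B, cytosolic and mitochondrial groups with an entry in the RefSeq promoter table (GRCm38.p6). Each runs 5′ to 3′ on the strand of its gene, is centred on the summit and stays upstream of the tabled start. The Tars sequence begins at the upstream limit of the table. Capitals mark, on either strand, the core GGGCGG read by Sp/KLF factors, the core CCGGAAG read by ETS factors and the box CCAAT read by NF-Y.
Eif2ak3, chr6:70844316-70844416, plus strand: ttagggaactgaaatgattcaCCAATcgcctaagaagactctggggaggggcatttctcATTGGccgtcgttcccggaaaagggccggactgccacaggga
Eif2b2, chr12:85219340-85219440, plus strand: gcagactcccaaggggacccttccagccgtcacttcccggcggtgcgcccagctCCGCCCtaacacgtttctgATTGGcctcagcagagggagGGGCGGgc
Tars, chr15:11399809-11399908, minus strand: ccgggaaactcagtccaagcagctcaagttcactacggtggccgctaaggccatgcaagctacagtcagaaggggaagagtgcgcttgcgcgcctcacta
Lars2, chr9:123366813-123366913, plus strand: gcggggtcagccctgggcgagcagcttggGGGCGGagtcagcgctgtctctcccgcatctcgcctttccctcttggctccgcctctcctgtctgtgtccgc
The Eif2ak3 stretch held 2 CCAAT cores, the Eif2b2 stretch held 3 matches in all, the Lars2 stretch held 1 and the Tars stretch held 0.

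An Otp region lay at an end of 57 of the 93 genes (61.3%, 95% exact binomial interval 50.6 to 71.2%). The same rule found a region at 27.2% of all protein-coding genes. Genes of the same length deciles had a region in 30.9%, below the lower bound of the set. The initiation factors had a region at 35 of 56 genes (62.5%, 48.5 to 75.1%), the cytosolic synthetases at 13 of 20 (65.0%, 40.8 to 84.6%) and the mitochondrial synthetases at 9 of 17 (52.9%, 27.8 to 77.0%). Their intervals overlapped, and the lower bound of the mitochondrial group lay below the 30.6% of genes of like length. The regions themselves were not unusual in height. Their median fold enrichment was 8.01 (interquartile range 6.90 to 10), beside 7.83 (6.32 to 10.1) over all 5961 protein-coding genes with a region, and the median was 16 tags in both. When only regions with −log10 q of 10 or more were kept, 27 of 93 genes (29.0%) had one, beside 13.4% of all protein-coding genes. That minimum left 19 of 56 initiation factors (33.9%), 4 of 20 cytosolic synthetases (20.0%) and 4 of 17 mitochondrial synthetases (23.5%).

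**Figure D1:**
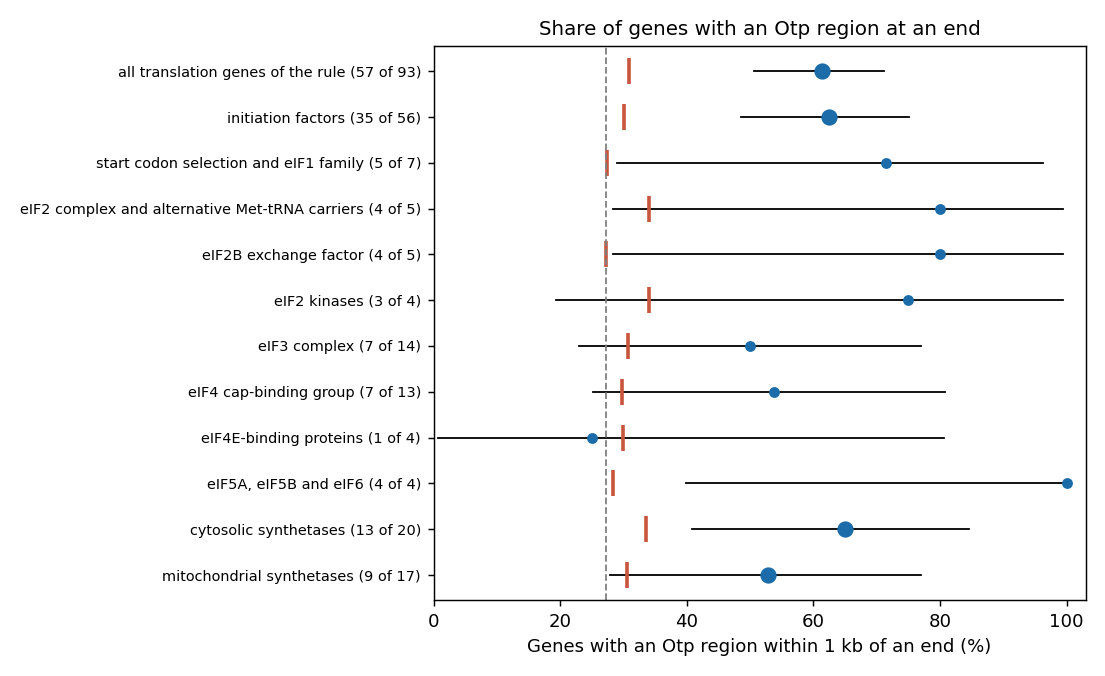
Share of genes with an Otp region within 1 kb of an end, in percent, for all 93 genes and for each class, with exact binomial 95% intervals as lines. Red ticks give the share in genes of the same length deciles and the dashed line the 27.2% of all protein-coding genes; 11 of the 12 points lie right of both, and the eIF4E-binding proteins, at 25%, lie left of both.

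Starts could be told from far ends for the 71 genes with an entry in the promoter table. The 62 regions at gene ends of the set comprised 50 on the side of the start, 1 at a far end and 11 at genes without an entry. Counted by gene, with the tabled start nearest to the outer end, 50 of the 71 genes (70.4%) had a region within 1 kb of the start, beside 28.6% of all 17492 protein-coding genes with an entry. A region at the far end was found for 1 of the 71 (1.41%) beside 1.3% of all. Taking the region nearest to any tabled start, summits lay upstream in 40 of 51 genes and within 100 bp in 31 of 51 (60.8%), beside 83.6% upstream and 56.8% within 100 bp over all genes. The median position, with upstream negative, was −54 bp in the set and −74 bp over all genes.

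**Figure D2:**
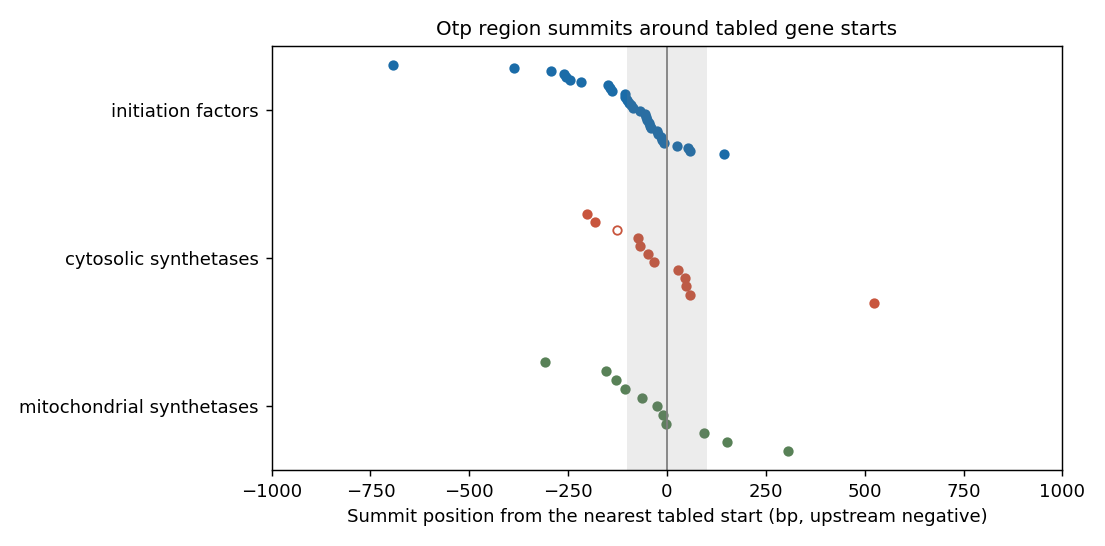
Position of each Otp summit from the nearest tabled start, in bp, for the genes with an entry in the promoter table, with upstream negative; each point is a region within 1 kb, the height within a group has no meaning, and the open point overlaps an IgG region. The shaded band spans 100 bp to either side of the start and holds the nearest summit of 31 of the 51 genes.

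The tabled starts also added genes. The gene table spans the outermost transcript of each gene, and in 5 genes without a region at an end a summit lay within 1 kb of a tabled start further in. Eif4e, which encodes the cap-binding protein itself, had 20 tags (12.2 to 30.9) and a fold enrichment of 9.46 at a summit 55 bp upstream of an inner start, just outside the limit at 1022 bp from the gene's end. Wars2 had 14 tags, 152 bp downstream of its tabled start and 1135 bp from its end, and Tars2 had 11 tags, 93 bp downstream. Aars2 had 9 tags, 305 bp downstream. Aars, the cytosolic alanine enzyme, had 19 tags (11.4 to 29.7) at a summit 127 bp upstream of a start that lies 6064 bp inside the annotated gene. With these, 62 of 93 genes (66.7%) had a region at an end or a tabled start, beside 29.6% of all protein-coding genes, and the mitochondrial count was 12 of 17. Just inside the limit of 1 kb lay the summit 812 bp from Eif4e1b, and just outside, after Eif4e and Wars2, lay that 1225 bp from Hars2.

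Among the kinases that phosphorylate eIF2, 3 of 4 had a region. Eif2ak3 encodes PERK, the kinase of endoplasmic reticulum stress. Its region (chr6:70844084-70844547) reached 55 tags (41.4 to 71.6) with a fold enrichment of 17.0 and ranked 213 of 11354 by −log10 q. Eif2ak4 encodes GCN2, which senses uncharged tRNA. It had 32 tags (21.9 to 45.2) and a fold enrichment of 13.3 (chr2:118388322-118388621). The haem-regulated kinase gene Eif2ak1 had a fold enrichment of 8.51, and no whole number of tags could be solved for it. Eif2ak2, the kinase activated by double-stranded RNA, had no region, and the nearest summit lay 15000 bp away. Eif2ak3 had the most tags of any initiation factor, although its interval overlapped that of the next, Eif5b with 34 tags (23.5 to 47.5).

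Of the 5 genes for eIF2 and eIF2A, 4 had a region (80.0%, 28.4 to 99.5%). The share in genes of like length, 34.0%, lies inside that interval. Eif2a, an alternative carrier of initiator tRNA, had 21 tags at a summit 144 bp downstream of its start and 81 bp from an end of Serp1. Eif2s1, the subunit that the kinases phosphorylate, had regions of 22 and 10 tags, and the higher of them lay nearer to Atp6v1d. Eif2s2 had 12 tags and the Y-linked copy of the third subunit, Eif2s3y, had 8 (3.45 to 15.8). Its X-linked counterpart Eif2s3x had no region. The exchange factor eIF2B had a region at 4 of 5 genes (80.0%, 28.4 to 99.5%), beside 27.2% of genes of like length. Eif2b2 was the highest with 28 tags and a fold enrichment of 13.8, followed by Eif2b4 with 16 tags, Eif2b3 with 8 and Eif2b5 with 10. Eif2b1, a regulatory subunit, had none.

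Of the 7 genes for start codon selection and related factors, 5 had a region (71.4%, 29.0 to 96.3%). Genes of like length had one in 27.4%. Eif5, which triggers GTP hydrolysis on eIF2, had 28 tags and a fold enrichment of 11.1 with the summit 16 bp upstream of its start (chr12:111537815-111538192). Eif1, which monitors the start codon, had 29 tags, Eif1a had 18, Eif2d had 13 and Eif1ax had 7. The Eif1a summit was 44 bp from that gene and 125 bp from Tmed7. Eif1b and Eif1ad had none, although the Eif1b window was rich in CpG, with 50 in 300 bp. All 4 genes for eIF5A, eIF5B and eIF6 had a region (100%, 39.8 to 100%), beside 28.4% of genes of like length. Eif5b, which joins the ribosomal subunits, had 21 tags at a summit 40 bp upstream of its start, and a second region of 34 tags lay 23 bp from Txndc9. Eif5a, needed for peptide bond formation at proline stretches, had 24 tags, its paralogue Eif5a2 had 13, and Eif6, which holds the large subunit apart, had 23.

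The eIF3 scaffold had a region at 7 of 14 genes, the share of 50% having an interval of 23.0 to 77.0% that includes the 30.7% of genes of like length. Eif3h stood highest, at 33 tags (22.7 to 46.3). Its fold enrichment of 18.2 (chr15:51865480-51865680) was the highest of any initiation factor. Eif3k and Eif3f had 19 tags each, Eif3b had 16, Eif3j1 had 15, Eif3c had 14 and Eif3l had 12. Eif3a, which encodes the largest subunit, had none, nor did Eif3d, Eif3e, Eif3g, Eif3i, Eif3m and Eif3j2.

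In the cap-binding group, 7 of 13 genes had a region at an end (53.8%, 25.1 to 80.8%), beside 29.7% of genes of like length. That share lies inside the interval. Eif4e had the inner region given above. The helicase gene Eif4a1 had 30 tags (20.2 to 42.8), its paralogue Eif4a2 had 18, and Eif4a3, a part of the exon junction complex, had 16. Eif4b, which stimulates the helicase, had 15 tags. The scaffold gene Eif4g1 had 9 (4.12 to 17.1). The region of 30 tags counted for Eif4e1b lay 812 bp from that gene and 169 bp from Tspan17. Eif4e2, Eif4e3, Eif4g3, Eif4h and Eif4a3l1 had no region at an end. Of the proteins that hold eIF4E away from eIF4G or move it, Eif4ebp2, the main form in brain, had 26 tags and a fold enrichment of 10.6, while Eif4ebp1, Eif4ebp3 and Eif4enif1 had none.

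The 13 cytosolic synthetases with a region at an end had a median of 13 tags, beside 18 for the initiation factors. The highest fold enrichment was at Tars, for threonine, with 11.7 and 23 tags (chr15:11399604-11399920). Lars, for leucine, had 27 tags (17.8 to 39.3), Nars, for asparagine, had 21, and Dars, for aspartate, had a region of 18 tags and a further region of 8. Yars had 17, Qars had 15 and Wars had 13. Kars and Mars1 had 12 tags each. Iars, Sars and both subunits of the phenylalanine enzyme, Farsa and Farsb, had 11 tags each (5.49 to 19.7). These values lie close together, and all intervals of the group's highest region per gene overlapped. In 3 of the 13 genes every region also lay within 1 kb of another protein-coding gene. The neighbours were Wdr25 for Wars, S100pbp for Yars and Terf2ip for Kars. The Kars summit was nearer to Terf2ip, at 29 bp, than to Kars, at 34 bp. Cars, Eprs, Gars, Hars, Rars and Vars had no region at an end. Eprs and Gars also had none at a tabled start. Cars, Hars, Rars and Vars have no tabled start, so theirs could not be searched. Eprs encodes the fused enzyme for glutamate and proline, and Gars the glycine enzyme that serves both compartments.

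The mitochondrial synthetases with a region at an end included Lars2, Ears2, Nars2, Iars2, Vars2, Sars2, Pars2 and Mars2. At its start, Lars2 had 23 tags (14.6 to 34.5) and a fold enrichment of 10.8, with a neighbouring region of 13 tags. Ears2 had 22 tags, Iars2 had 17, Sars2 had 16, Nars2 had 15, Vars2 had 14, Pars2 had 11 and Mars2 had 9. Of the 9 in all, 5 had every region within 1 kb of another protein-coding gene as well. Among these, Ears2 shared its region with Ubfd1, Iars2 with Bpnt1, Sars2 with the mitochondrial ribosomal gene Mrps12 and Vars2 with Gtf2h4. At Ears2 and Sars2 the neighbour's end was the nearer. Over all translation genes of the set with a region, 16 of 57 (28.1%) shared it in this way, beside 28.6% over all protein-coding genes. For the initiation factors it was 8 of 35 (22.9%). These included Eif3k with Map4k1, Eif2b4 with Snx17 and Eif4a1 with Senp3, whose ends lay 94, 116 and 585 bp from the summit. Cars2, Fars2, Rars2 and Yars2 had no region at an end or a tabled start. Hars2 had none at an end and has no tabled start to search. Hars and Hars2 overlap at an end in the annotation, and neither had a region there.

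**Figure D3:**
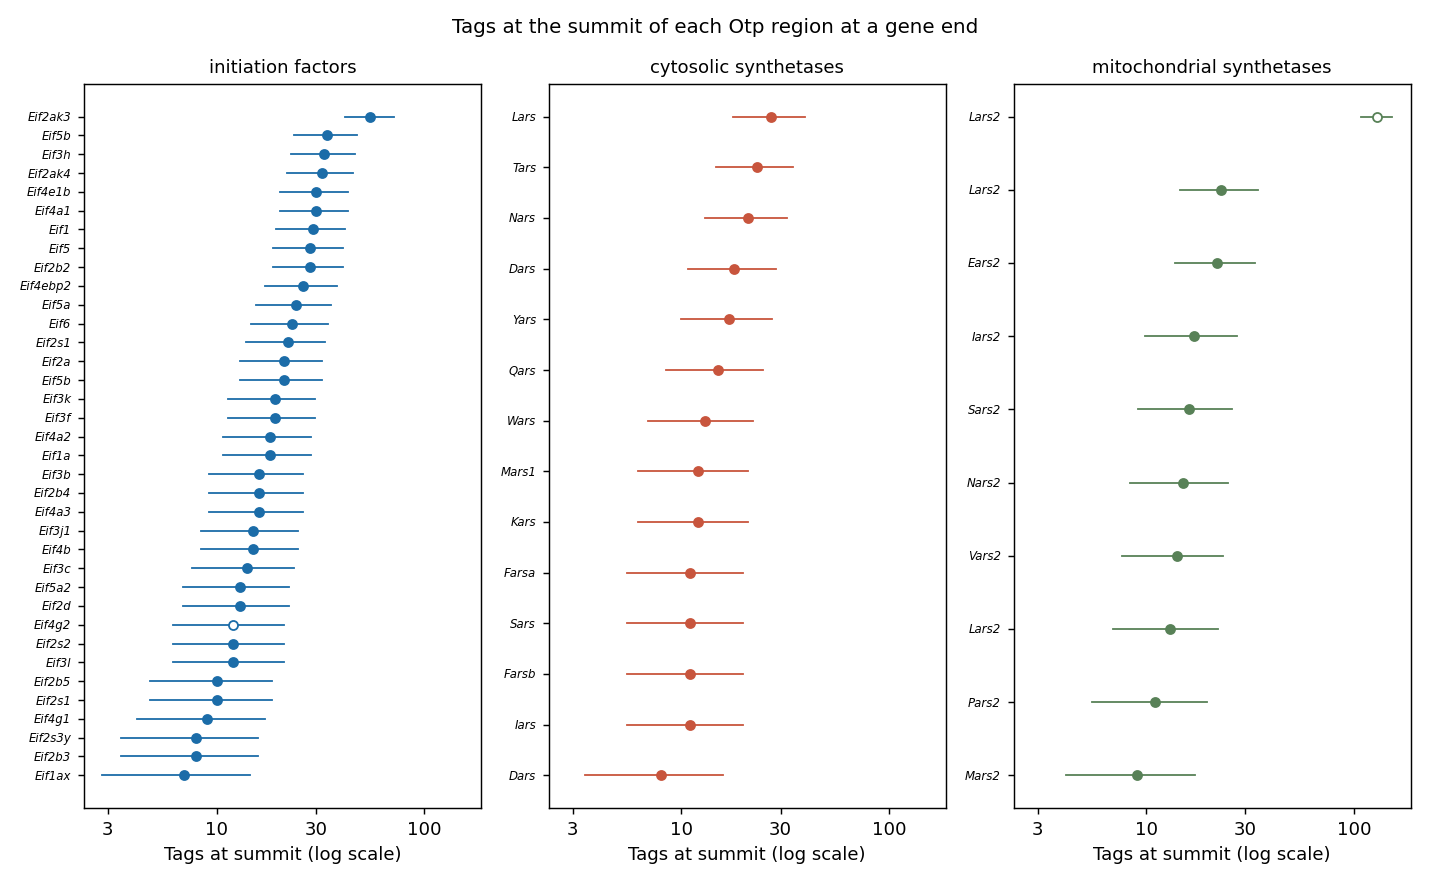
Tags at the summit of each Otp region within 1 kb of a gene end (log axis), with 95% Poisson intervals, for initiation factors, cytosolic synthetases and mitochondrial synthetases; a gene with several regions appears more than once, open points overlap an IgG region, Eif2ak1 has no solved value, and 1 mitochondrial region is not shown. Apart from the far end of Lars2 at 129 tags and Eif2ak3 at 55, the points lie between 7 and 34 tags.

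The highest region of the set belonged to the far end of Lars2 and was also present in the control. Covering chr9:123461804-123462188, 664 bp inside that end, it had 129 tags (108 to 153) and a fold enrichment of 37.0 in the Otp library. The IgG region at the same place had 28 tags (18.6 to 40.5) and a fold enrichment of 19.7. The Otp value corresponded to 22 tags after scaling by the ratio of the 2 libraries' genome backgrounds (0.171) and to 39.4 after scaling by the median IgG-to-Otp ratio where regions of the lists overlapped (0.305), so that the IgG value lay between them. Eif4g2, which encodes an eIF4G-like scaffold that does not bind eIF4E, had 12 tags (6.20 to 21.0) in the Otp library at its upper end and an IgG region of 6 tags (2.20 to 13.1). Scaled in the same 2 ways, its Otp value corresponded to 2.05 and 3.66 tags, both below the 6 of IgG. Lars2 and Eif4g2 were the 2 genes of 93 (2.15%) with an IgG region at an end, beside 0.379% of all protein-coding genes. Aars had an IgG region of 5 tags (1.62 to 11.7) 39 bp from its tabled start, under its Otp region.

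The lowest number of tags in an IgG region was 4, which limits the comparison at the other genes. An Otp region at an end without IgG overlap was found for 56 genes. Scaled by genome background, 12 of these 56 would reach 4 tags in the IgG library. They were Eif2ak3 (9.38 tags), Eif5b, Eif3h, Eif2ak4, Eif4a1, Eif4e1b, Eif1, Eif5, Eif2b2, Lars, Eif4ebp2 and Eif5a (4.09 tags). For Eif5b and Eif4e1b this held for a region nearer to Txndc9 and to Tspan17. The region nearest the Eif5b start corresponded to 3.58 tags. Scaled by the ratio at shared regions, 37 would. Eif2ak1, which has no solved tag number, could not be scaled. These are expected values, and counting error could put one near 4 on either side. Values further above 4, such as Eif2ak3 with 9.38 or, by shared regions, 16.8, rest on 1 library per antibody and were not tested. A missing IgG region is therefore not shown to be a difference at any single gene.

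Promoter composition was compared for the genes with an entry. Over all protein-coding genes, windows of 300 bp with a region at the start held more CpG than those without, with medians of 23 and 7. The translation genes did not follow that order. The 50 with a region had a median of 19.5 CpG (interquartile range 15 to 27.8). The 21 without had 27 (21 to 32), so the ranges overlapped. Among initiation factors the medians were close, at 23 and 25. Only 2 windows of cytosolic and 4 of mitochondrial synthetases were without a region. In genes with like numbers of CpG, 45.8% had a region at the start, beside 70.4% in the set.

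The homeodomain core TAATTA was searched on both strands, because Otp belongs to that family. It occurred in 4 of 71 windows (5.63%), beside 4.69% of all promoter windows, and in 0 of 44 windows of initiation factors. The 4 genes, Aars2, Dars, Iars2 and Tars2, all had an Otp region at the start, as did 50 of all 71 genes (70.4%). None of the 4 matches lay inside a region, and they were 127 to 519 bp from the nearest summit. Parts of Otp regions outside the windows of 300 bp were not searched for this or any other motif. Regions at genes without an entry were not searched either. The sites nearest to a summit are shown with the core in capitals.
Iars2, chr1:185329523-185329552, minus strand: ccctggacaagtTAATTAaatgtatctgat
Dars, chr1:128417579-128417608, minus strand: ctgtctttaaaaTAATTAgaattaaattta
Over all genes the core was less frequent in windows with a region at the start (2.26%) than in those without (5.66%).

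The ATF4 composite element TGATGCAA occurred in 4 of 13 windows of cytosolic synthetases, beside 0.903% of all windows. It occurred in 0 of 44 windows of initiation factors and 0 of 14 of mitochondrial synthetases. The 4 genes were Aars, Tars, Iars and Yars, and all had an Otp region at the start. Of all 13 cytosolic synthetases with a window, 11 (84.6%) had one. The Otp region at Aars also overlapped an IgG region. The match lay inside the Otp region at 3 of the 4 genes and outside it at Yars. It was 189 bp from the summit at Tars, 79 bp at Iars and 187 bp at Yars. The 30 bases around these matches, on the strand of the gene, show the element in capitals, as written at Yars and as its reverse complement at Tars and Iars.
Tars, chr15:11399655-11399684, minus strand: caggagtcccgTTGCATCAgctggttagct
Iars, chr13:49682126-49682155, plus strand: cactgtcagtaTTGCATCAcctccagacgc
Yars, chr4:129189895-129189924, plus strand: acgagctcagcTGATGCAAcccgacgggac
Over all genes, 0.399% of windows with a region at the start and 1.11% of those without held the element.

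Cores of general promoter factors were searched in the same windows. GGGCGG was found in 72.0% of the 50 windows with a region at the start and in 71.4% of the 21 without, whereas over all genes the shares were 71.5% and 36.2%. CCGGAAG was found in 28.0% and 42.9%, against 21.7% and 7.98% over all genes. AAGATGGC, read by YY1, was found in 12.0% and 9.52%, against 5.75% and 2.19%. CCAAT, which was searched after the sequences had been seen, was found in 24 of 50 windows with a region (48.0%) and in 3 of 21 without (14.3%), against 51.1% and 34.4% over all genes. The Otp regions covered 49.5% of the bases of the 50 windows with a region at the start. In these windows 60 of 88 GGGCGG matches lay inside a region, as did 12 of 16 CCGGAAG matches, 3 of 6 AAGATGGC matches and 38 of 43 CCAAT matches. Of the CCAAT matches, 6 belonged to Eif2ak3 alone. The Eif1ax window held more GGGCGG matches than any other of the set, and all of them lay outside that gene's region. The Eif3k window held the single NRF1 match of the set, centred 5 bp from the summit.
Eif3k, chr7:28981947-28981976, minus strand: tgagctcattGCGCATGCGCaagttacaac
Over all windows 1.33% held this NRF1 motif, and the cAMP response element TGACGTCA, held by 2.33% of all windows, was in 0 of 71.

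**Figure D4:**
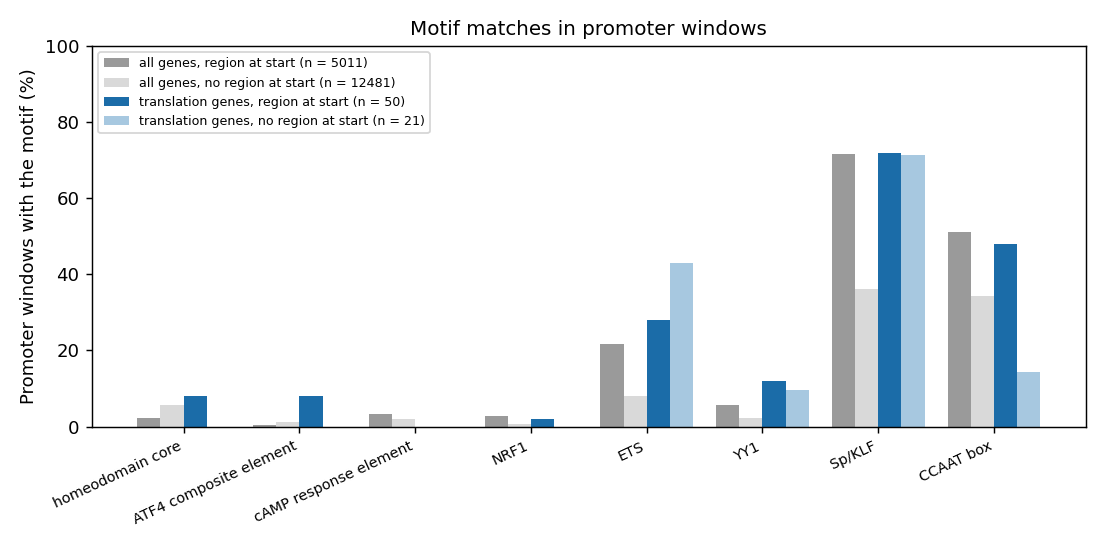
Share of promoter windows of 300 bp (1 per gene) with a motif on either strand, in percent, for all protein-coding genes (grey) and the translation genes of the set (blue), with (dark) and without (light) an Otp region at the start. The Sp/KLF core stands at 72.0% and 71.4% in the translation genes and at 71.5% and 36.2% over all genes.

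Genes of the same pathways outside the symbol rule were counted in the same way. Of 11 elongation and termination factors, 8 had a region at an end (72.7%, 39.0 to 94.0%), beside 28.6% of genes of like length, led by Eef1g with 30 tags and Etf1, the release factor, with 27, and 1 of the 11 had an IgG region. Of 26 genes of mTOR signalling and other initiation regulators, 16 did (61.5%, 40.6 to 79.8%), beside 30.4% of genes of like length, led by the kinase gene Mtor with 39 tags and a fold enrichment of 15.1. Of 14 further genes of the integrated stress response, 8 did (57.1%, 28.9 to 82.3%), beside 26.5%. Atf4, the factor that the eIF2 kinases raise, had 33 tags and a fold enrichment of 11.4, Dnajc3 had 25 tags and Atf5 had 32. The summits lay 52 bp from an end of Atf4 and 90 bp from Dnajc3, but 817 bp from Atf5. Of 11 synthetase partners and related enzymes, 5 did (45.5%, 16.7 to 76.6%). Among them were Eef1e1 with 28 tags, Tarsl2 with 32 and Gatb with 24. Of 9 mitochondrial translation factors, 5 did (55.6%, 21.2 to 86.3%), led by Tufm with 24 tags. The intervals of these last 2 lists included the 31.7% and 31.5% of genes of like length.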

How the data were processed

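CUT&RUN was measured in 2 libraries of wild-type PVN, 1 with an Otp antibody and 1 with IgG, grouped by the antibody label. The submitters' processing notes name the authors' build as mm10 and their tools as MACS2, Bowtie2, Trimmomatic, SAMtools and Picard. Versions, settings and any control in peak calling: not given in the sources used here. The deposited lists give a fold enrichment (a ratio), a −log10 p and a −log10 q per region as the authors' values, used to describe and filter regions within a list. The deposited display score was not used. Library totals are not in the lists, so depth is unknown.

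Summits were set against 21887 nuclear protein-coding genes of RefSeq GRCm38.p6. Tags were accepted when 1 whole number matched the authors' −log10 p to 0.001 and its neighbours were off by over 0.005, which held for 98.3% of Otp and 90.0% of IgG regions. The calculation was checked on simulated data. Genome background, the lowest value shared by at least 3 regions, was 0.512 tags for Otp and 0.0873 for IgG, and 226 shared regions gave the other ratio. Shares have exact (Clopper-Pearson) intervals that cover counting error only. Shares in genes of like length are means over 10 length deciles, and those of like CpG over bins 2 CpG wide.

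Promoter windows run from 250 bp before to 50 bp after a tabled start, and 71 of 93 genes had one. The window nearest the outer end was used. Genes, gene lists, motifs and the naming rule (all members by class, list genes by fold enrichment) were chosen with earlier results of these data known. The CpG comparison, CCAAT and the use of tabled starts were chosen after seeing the data. Python 3.11.15, numpy 2.4.6, pandas 2.3.3, scipy 1.17.1 and matplotlib 3.10.9 were used. The values of 1 gene and 1 sequence are not reported here.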

Additional observations from a re-analysis of the deposited data

How the results depend on the processing

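A −log10 q of at least 10 lowered the counts of genes with an Otp region at an end to 27 in all, 19 initiation factors, 4 cytosolic and 4 mitochondrial synthetases, because it leaves fewer regions. The IgG count fell to 1 within 500 bp, since the region at Lars2 lies further from the end. The count over all 93 genes ran from 50 to 64 under the other alternatives, which were windows of 500 bp and 5 kb, a minimum of 5 for −log10 q or for fold enrichment, gene bodies, nearest gene, removal of regions with IgG overlap and tabled starts. The share over all protein-coding genes moved with the setting. The lowest count (53.8%, −log10 q of at least 5) stood beside 23.3% of all. The highest (68.8%, gene bodies) stood beside 35.3%. The mitochondrial count was the least steady. It was 6 of 17 (35.3%) when a summit counted only for its nearest gene, beside 23.7% of all protein-coding genes. Within 5 kb it was 13 (76.5%), beside 34.4%. The median fold enrichment ran from 7.76 to 8.04. Regions in genes without a promoter entry could not be assigned to a start. No paired analysis was possible because neither antibody has a second sample, and for the same reason leaving out a replicate was not possible.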

Other observations

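Some regions lay inside genes of the set, away from any end or tabled start. Fars2, for mitochondrial phenylalanine, had a region of 22 tags and a fold enrichment of 12.7 at 164826 bp from the nearer gene end (chr13:36282206-36282307), while its start had none. Eif4g3, an eIF4G paralogue, had a region of 11 tags at 93722 bp from its nearer end, and Lars2 had one of 7 tags at 46330 bp. None of these 3 overlapped an IgG region.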
